A study of Mus musculus with 6 samples.

Results

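The 7 genes described here are Pnlip, Pnliprp1, Pnliprp2, Tgm3, Sprr2d, Klk1 and Siglecg, which are high in the mouse gonad at E11.5 (E, embryonic day). The group includes lipase genes and genes of the skin barrier, beside a protease gene and a receptor gene. All were taken by symbol and were 7 of the 31053 genes listed, each present once in every library. They had been picked because their counts in E11.5 gonadal cells stood far above those at E14.5. Their levels by stage are therefore a description, with no test. Cyp11a1, which encodes the side-chain cleavage enzyme that starts steroid synthesis from cholesterol, is followed beside them.

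Pnlip encodes pancreatic lipase, which digests dietary fat in the gut, and Pnliprp1 and Pnliprp2 encode its close relatives. Tgm3 encodes a transglutaminase that cross-links proteins of the cornified envelope of skin and hair, and Sprr2d encodes one of the small proline-rich proteins that are cross-linked there. Klk1 encodes tissue kallikrein, a secreted serine protease that releases kinins, and Siglecg encodes an inhibitory receptor for sialic acid best known from B cells. In the XX gonad these stages span the thickening of the coelomic epithelium into the genital ridge and the formation of supporting cells, the forerunners of granulosa cells, which take up Foxl2.

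Single cells in droplets (10x Chromium 3′ v2, poly(A) RNA) gave 5 libraries of XX gonad from ICR embryos, 1 per day from E10.5 to E14.5. A further library held gonad somatic cells induced from ES cells (129svj x C57BL/6J) at culture day 6 (Induced D6). The induced cells grew as aggregates in 3 steps of 2 days: EGF, BMP4 and CHIR in the first, EGF, SHH, PD0325901, Retinoic acid and BMP4 in the second, and FGF9 with BMP4 in the last. Papain was used to free the cells, and the labels name no sorting, so a library can hold every cell type of its source. The labels give no number of embryos per library, and the induced library differs from the others in strain as well as in culture.

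With 1 library per group no test was possible. Counts are of UMIs (unique molecular identifiers, 1 per captured RNA molecule). Levels are CPM, the UMIs of a gene per 1000000 UMIs of the same cells, with exact Poisson 95% intervals. Shares of cells have exact Clopper-Pearson 95% intervals, and all intervals cover counting error only, not differences between embryos. Because depth differed, each cell was thinned at random to 3000 UMIs before shares of cells with a UMI were taken. After filtering, 2660 to 7064 cells remained per library, with a median of 6184 to 11831 UMIs per cell. Pairs of libraries shared 16 to 66 cell barcodes, 0.537% to 1.59% of the smaller library. Clusters carry names ending in "-like" because these rest on marker genes alone. The gonadal-epithelium-like class joins the clusters named coelomic-epithelium-like or supporting-lineage-like, and held 477, 1403, 1779, 2078 and 1623 cells of the gonad stages in order and 3579 induced cells. The E10.5 library had no supporting-lineage-like cluster.

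On GRCm38 with the GENCODE vM21 annotation, all 7 are protein-coding genes on the forward strand. The 3 lipase genes lie side by side within 125 kb of chromosome 19, Pnlip at chr19:58652498-58681788, Pnliprp1 at chr19:58728887-58744169 and Pnliprp2 at chr19:58759719-58777534, with 13, 13 and 12 exons in the longest annotated transcript. Tgm3 spans chr2:130012349-130050399 with 13 exons, and Sprr2d, inside the small proline-rich protein cluster of chromosome 3, spans chr3:92339140-92340873 with 2 exons. Klk1 at chr7:44225360-44229618 (5 exons) and Siglecg at chr7:43408204-43418358 (12 exons) are 807 kb apart. The last 500 bases of the annotated transcripts, where 3′ tags fall, held no 31-base word of another gene for the lipase genes or Tgm3. For Sprr2d 4.04% of these words occur in other Sprr2 genes, for Siglecg 15.9% occur in 1 other gene, and for Klk1 47.6% occur in 20 Klk1b genes and pseudogenes, so the Klk1 counts are uncertain to that extent.

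The stretches just before the transcription start show how the promoters of genes with a like pattern differ in their letters. The 150 bases before the RefSeq start (GRCm38.p6, forward strand) are printed 5′ to 3′ for 6 of the genes: chr19:58670215-58670364 for Pnlip, chr19:58728737-58728886 for Pnliprp1, chr19:58759573-58759722 for Pnliprp2, chr2:130012190-130012339 for Tgm3, chr3:92338990-92339139 for Sprr2d and chr7:44225210-44225359 for Klk1. Capitals mark matches to TATAAA (given strand only), and to CCAAT or AGATAA on either strand (ATTGG and TTATCT on the opposite one).
Pnlip: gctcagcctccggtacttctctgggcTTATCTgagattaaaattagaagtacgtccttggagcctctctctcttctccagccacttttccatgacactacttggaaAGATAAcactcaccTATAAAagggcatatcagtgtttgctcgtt
Pnliprp1: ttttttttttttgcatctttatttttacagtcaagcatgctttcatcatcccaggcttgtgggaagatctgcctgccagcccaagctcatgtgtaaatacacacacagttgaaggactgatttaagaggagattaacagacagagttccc
Pnliprp2: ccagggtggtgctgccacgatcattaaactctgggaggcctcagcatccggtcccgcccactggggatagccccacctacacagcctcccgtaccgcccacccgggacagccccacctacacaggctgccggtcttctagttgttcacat
Tgm3: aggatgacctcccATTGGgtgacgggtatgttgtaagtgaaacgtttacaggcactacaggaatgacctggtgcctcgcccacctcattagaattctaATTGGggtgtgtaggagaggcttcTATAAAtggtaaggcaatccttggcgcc
Sprr2d: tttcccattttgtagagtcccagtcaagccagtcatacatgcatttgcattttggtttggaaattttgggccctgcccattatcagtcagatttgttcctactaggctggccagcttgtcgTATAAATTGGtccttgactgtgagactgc
Klk1: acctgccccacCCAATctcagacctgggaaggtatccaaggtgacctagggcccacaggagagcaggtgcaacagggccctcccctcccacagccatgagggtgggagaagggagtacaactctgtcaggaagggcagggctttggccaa

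Pnlip, Tgm3 and Sprr2d, 3 of the 7 genes, have TATAAA starting 30, 28 and 29 bases before the start, and 4.84% of all 32851 RefSeq promoters in the table have it in the same window. In Sprr2d this match overlaps the opposite-strand CCAAT by 1 base. CCAAT occurs before Tgm3, Sprr2d and Klk1 (24.5% of all promoters), and AGATAA only before Pnlip among the 7 (5.65%). The word AAGGTCA, a nuclear receptor half-site, is in none of the 7 windows and in 2.31% of all. None of these words is in the windows of Pnliprp1, Pnliprp2 or Siglecg. The RefSeq start of Pnlip lies inside the GENCODE gene, 17867 bases after the GENCODE start. A match describes letters only.

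Across whole libraries, all 7 genes were highest at E11.5, close to absent at E10.5 and lower at each later stage. From E10.5 (4 UMIs) to E14.5, Pnlip stood at 0.0939, 82.0, 37.2, 7.07 and 1.98 CPM, and in the induced cells at 20.5 CPM. Pnliprp1 stood at 0.141, 27.2, 15.1, 3.33, 0.690 and 2.33 CPM in the same order. Pnliprp2 stood at 0.188, 79.6, 22.4, 1.81, 0.345 and 9.72 CPM. The lipase intervals of the in vivo libraries from E11.5 on did not overlap between stages for Pnlip, Pnliprp1 or Pnliprp2, and the induced library lay between E12.5 and E13.5 for Pnlip and Pnliprp2 and between E13.5 and E14.5 for Pnliprp1.

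The cornified-envelope genes Tgm3 and Sprr2d had the same order over stages. Tgm3, the cross-linking enzyme, was at 0.0469 (2 UMIs), 59.3, 12.52, 1.30, 0.316 and 8.81 CPM in the order of the lipases. Sprr2d, its substrate in skin, was at 47.5, 18.8 and 0.761 CPM from E11.5 to E13.5 and at 17.0 CPM in the induced cells. No Sprr2d UMI was found at E10.5 or E14.5, where 3 counts would have been 0.0704 and 0.0863 CPM. Sprr2d was the gene in which the induced library came nearest to E12.5.

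Klk1 had 0 UMIs at E10.5, then 19.6, 8.90, 0.576 and 0.172 CPM at the later stages, and 2.26 CPM in Induced D6. Siglecg was at 2.42, 46.6, 15.02, 3.58, 0.977 and 1.57 CPM in the order of the lipases. Siglecg was the 1 gene with more than 8 UMIs at E10.5, where 39 of its 103 UMIs lay in paraxial-mesoderm-like, 31 in unnamed, 11 in coelomic-epithelium-like and 4 in megakaryocyte-like clusters. Cyp11a1 followed the same course, with 0.235, 26.9, 7.44, 0.514, 0.172 and 4.85 CPM. The nuclear receptor gene Nr5a1, a regulator of the early gonad, stayed within 26.5 to 33.7 CPM from E11.5 on, and Foxl2 went from 6.47 CPM at E11.5 to 49.8 at E13.5.

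**Figure D1:**
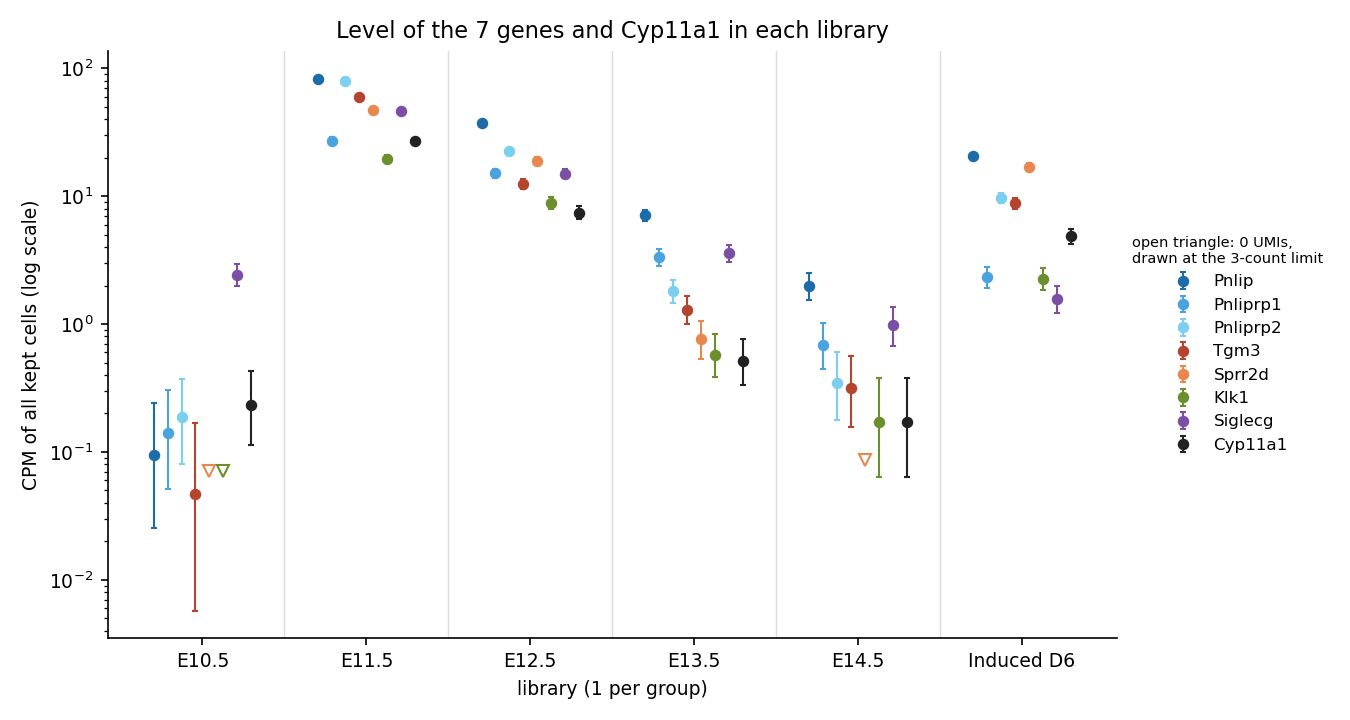
Level of each of the 7 genes and Cyp11a1 in all kept cells of each library, in CPM on a log axis, with exact Poisson 95% intervals; open triangles stand for 0 UMIs and are drawn at the level of 3 counts. Every gene has its highest point at E11.5, from 19.6 CPM for Klk1 to 82.0 CPM for Pnlip, and every gene is below 2 CPM at E14.5.

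Few cells held several of the genes outside E11.5 and E12.5. At least 1 of the 7 was found in 26.9% (25.3 to 28.7) of thinned cells at E11.5 and in 20.6% at E12.5, but in 0.877% at E10.5, 5.29% and 1.16% at the last 2 stages and 9.40% of induced cells. At least 2 were found in 13.8% (12.48 to 15.2) at E11.5, 5.94%, 0.211% and 0.0527% at the 3 later stages, and 1.39% of induced cells. None of 5473 cells held 2 at E10.5. At least 5 were held by 28 cells at E11.5 (1.07%) and by 3 at E12.5, and no thinned cell of any library held all 7.

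The E11.5 cells that held these genes were mostly supporting-lineage-like, a class of 818 cells (30.8% of the library) defined by Fst, Wnt4, Runx1, Foxl2 and other markers, none of them among the 7. Without thinning, 186 of the 189 cells with at least 5 of the genes (98.4%) lay in this class. The class held 480 of 506 cells with Tgm3 (94.9%), 167 of 181 with Sprr2d (92.3%), 299 of 306 with Klk1 (97.7%) and 385 of 443 with Siglecg (86.9%). The lipase genes were spread more widely. Pnlip had 67.2% of its 707 holding cells in the class and 20.9% in coelomic-epithelium-like clusters, and Pnliprp2 had 65.1% and 23.4% of 441. Pnliprp1 had 78.4% of 292 in the supporting-lineage-like class.

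The levels show the same split between the lipases and the other genes. Supporting-lineage-like and coelomic-epithelium-like cells stood at 223 and 38.3 CPM for Pnlip, 77.8 and 9.10 for Pnliprp1, and 227 and 24.0 for Pnliprp2. For Tgm3 they stood at 187 and 0.987 CPM (9 UMIs), for Sprr2d at 148 and 3.40, for Klk1 at 62.1 and 0.440 (4 UMIs), and for Siglecg at 143 and 2.63. Cyp11a1 stood at 84.1 and 0.660 CPM (6 UMIs). The lipase RNAs were thus counted in the coelomic-epithelium-like class, where Tgm3, Klk1 and Cyp11a1 were near the limit of counting. Its clusters were unlike: division genes led cluster 8, while clusters 2 and 9 had Upk3b among their leading genes. Of thinned cells without a Cyp11a1 UMI, Pnlip was in 15.4% of cluster 8, 7.24% of cluster 2 and 4.83% of cluster 9. In the same order Pnliprp1 was in 6.29%, 1.38% and 0%, and Pnliprp2 in 3.50%, 4.48% and 4.83%.

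Cells that should lack these genes served as a background, and whether their UMIs came from free RNA was not tested. After thinning, 30.95% of supporting-lineage-like cells had a Pnlip UMI (58.1% before thinning), 21.6% a Pnliprp2 UMI (35.1%), 32.8% a Tgm3 UMI (58.7%) and 12.45% a Sprr2d UMI (20.4%). Pnliprp1 was found in 13.6% (28.0%), Klk1 in 14.1% (36.6%) and Siglecg in 24.5% (47.1%). Of 77 erythroid-like cells, 2 had Pnliprp2 (2.60%), 2 had Sprr2d and none had any of the other 5 (0% of 77, interval up to 4.68%). Of 51 endothelium-like cells 1 had Pnliprp2. The median depths before thinning were 10641.5 UMIs in the supporting-lineage-like class, 14661 in erythroid-like and 19786.5 in endothelium-like cells, so the shallower class had the higher shares.

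Within the supporting-lineage-like class the 3 clusters formed a graded series, together with Foxl2. These clusters were built with the members among the variable genes, so their levels are given only as a description. Cluster 0 (387 cells, Foxl2 at 33.4 CPM) had 300 CPM of Pnlip, 352 of Pnliprp2, 302 of Tgm3, 277 of Sprr2d, 107 of Klk1 and 246 of Siglecg. Cluster 3 (262 cells, Foxl2 at 9.05 CPM) had 189, 135, 97.4, 23.2, 23.2 and 51.4 CPM of the same genes. Cluster 7 (169 cells, Foxl2 at 1.30 CPM) had 69.5, 38.9, 20.3, 1.73, 4.75 and 12.95 CPM. From cluster 0 to cluster 7 Pnlip and Pnliprp1 (101, 74.8 and 19.0 CPM) differed least and Sprr2d most. An unnamed cluster of 63 cells led by the kidney-tubule regulator Pax8 held 68.9 CPM of Pnliprp2 and 49.0 of Pnlip, but 1.53 of Sprr2d and of Klk1.

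**Figure D2:**
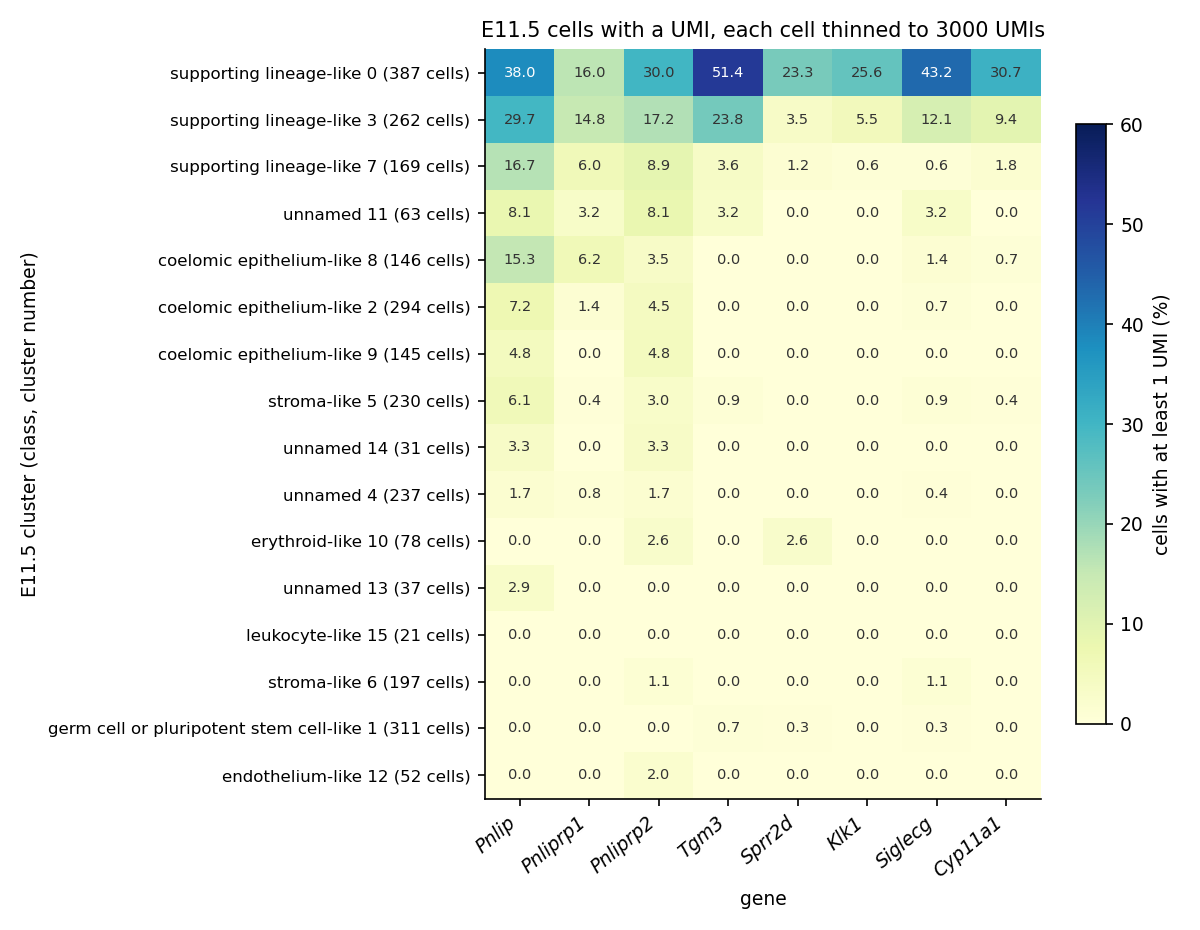
Share of cells with at least 1 UMI of each gene (columns) in each E11.5 cluster (rows, ordered by the summed CPM of the 7 genes), after thinning each cell to 3000 UMIs. Tgm3 reaches 51.4% and Siglecg 43.2% in supporting-lineage-like cluster 0, Pnlip is still at 15.3% in coelomic-epithelium-like cluster 8, and endothelium-like, leukocyte-like and germ-cell-like clusters are at or near 0.

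Inside cluster 0 the RNA was unevenly shared between cells. Pnliprp2 was found in 30.0% of its 387 cells with a mean of 4.40 UMIs per holding cell, up to 23, and the 10% of cells with most Pnliprp2 held 71.0% of its UMIs. Sprr2d was found in 23.3% with 4.09 UMIs per holding cell, and 78.5% of its UMIs were in the top 10% of cells. Tgm3 was found in more cells (51.4%) with fewer UMIs in each (1.76), and 42.0% of its UMIs were in the top 10%. The top 10% also held 80.99% of the UMIs of Pnliprp1, 77.2% of those of Nr5a1 and 100% of those of Foxl2. Nr5a1 was found in 13.4% of cells and Foxl2 in 8.27%. This share is bound to be high for a gene found in few cells, so it does not by itself show uneven sharing. The Fano factor, the variance of UMIs per cell divided by their mean, is 1 for counts that vary by sampling alone. It was 7.60 for Pnliprp2, 6.60 for Sprr2d, 3.30 for Pnlip and 2.78 for Pnliprp1. It was 2.00 for Siglecg, 1.79 for Tgm3, 1.53 for Klk1, 2.07 for Cyp11a1 and 1.03 for Nr5a1. Sprr2d, Pnlip and Tgm3 had like means (0.951, 0.992 and 0.904 UMIs per cell), so their factors can be compared. Pnliprp2 had a mean of 1.32 and Pnliprp1 of 0.313. The factor was not adjusted for the mean, so it does not rank genes with unlike means.

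**Figure D3:**
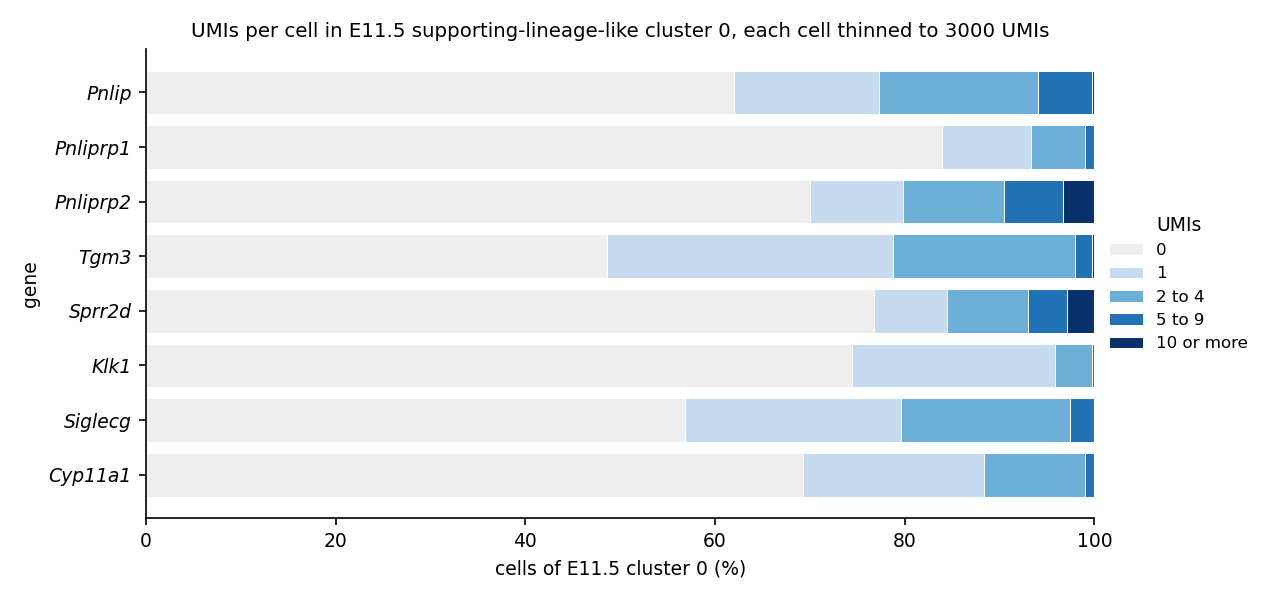
Cells of E11.5 supporting-lineage-like cluster 0 by their number of UMIs of each gene, as stacked percentages of 387 cells thinned to 3000 UMIs. Tgm3 has the smallest share of cells at 0 (48.6%) and mostly cells with 1 UMI (30.2%), while Pnliprp2 and Sprr2d have 3.36% and 2.84% of cells with 10 or more.

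Cells with a Cyp11a1 UMI held the genes more often than cells without one, by an amount that differed between genes. Among 1390 thinned E11.5 gonadal-epithelium-like cells, 147 had Cyp11a1. Of these 61.2% (52.8 to 69.1) held at least 2 of the 7 genes, against 21.4% (19.1 to 23.8) of the other 1243, and the mean number of genes held was 2.16 against 0.797. Tgm3 was found in 56.5% with Cyp11a1 and 14.7% without, Siglecg in 38.8% and 11.7%, and Klk1 and Sprr2d in 23.1% each against 6.44% and 5.39%. Pnlip was found in 34.7% and 20.1%, Pnliprp2 in 25.2% and 13.1%, and Pnliprp1 in 14.3% and 8.21%.

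Inside the supporting-lineage-like class the difference was smaller, and more so for the lipases. Of the 147 cells, 146 were supporting-lineage-like, and inside that class the lipase genes showed overlapping intervals with and without Cyp11a1: 34.9% (27.2 to 43.3) and 30.1% (26.6 to 33.7) for Pnlip, 25.3% and 20.8% for Pnliprp2, and 14.4% and 13.4% for Pnliprp1. The other 4 genes had intervals that did not overlap. Tgm3 was found in 56.8% (48.4 to 65.0) with Cyp11a1 and 27.5% (24.2 to 31.1) without, Sprr2d in 23.3% and 10.1%, Klk1 in 23.3% and 12.03%, and Siglecg in 39.0% and 21.4%. Within cluster 0 alone (119 cells with Cyp11a1 and 268 without) the intervals overlapped for all 7 genes, and the shares came to 60.5% and 47.4% for Tgm3 and 37.8% and 38.1% for Pnlip. Cluster 0 was itself built with the members among the variable genes, and Cyp11a1 is among its leading genes. Its shares are therefore a description and cannot show whether the link with Cyp11a1 is absent there.

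**Figure D4:**
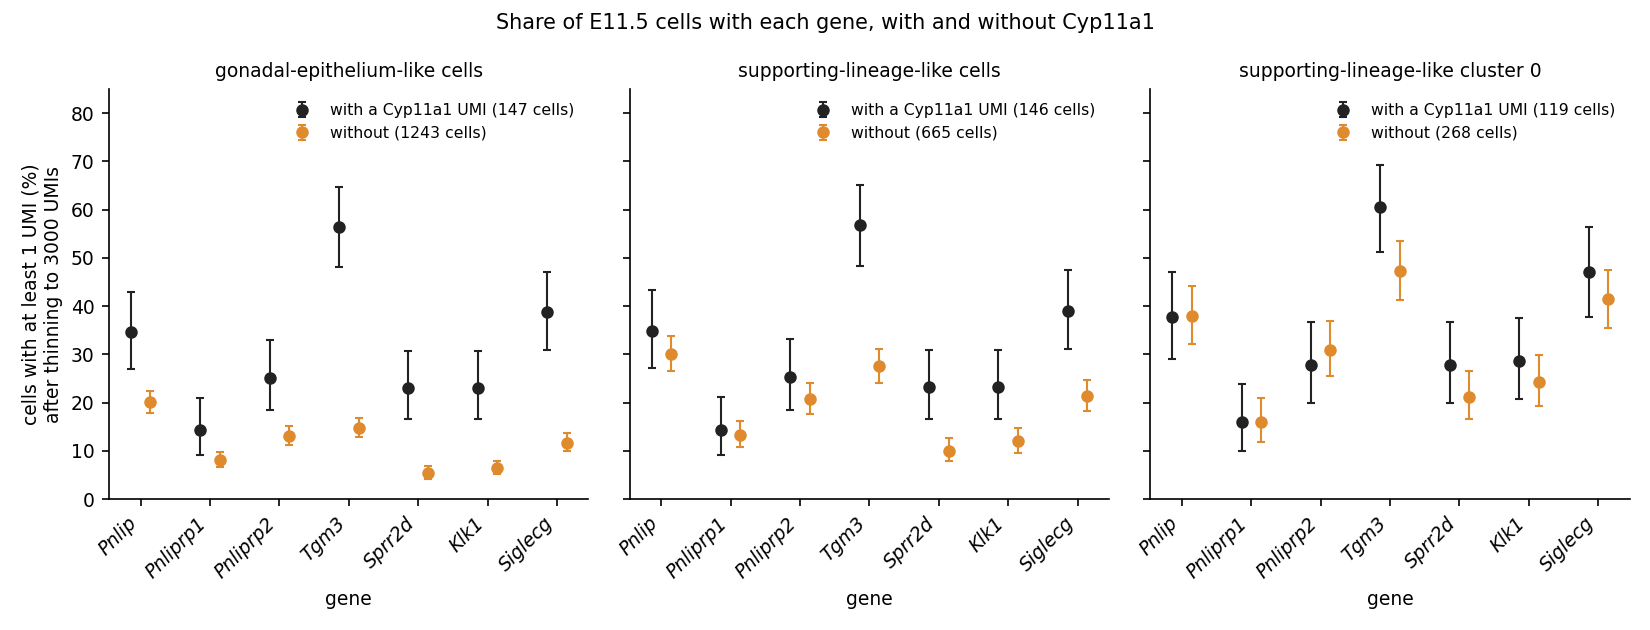
Share of E11.5 cells with at least 1 UMI of each gene among cells with (black) and without (orange) a Cyp11a1 UMI, in 3 nested sets of cells, with exact 95% intervals. Tgm3 is at 56.5% against 14.7% in gonadal-epithelium-like cells and at 60.5% against 47.4% in cluster 0, while the lipase genes show overlapping intervals in the middle and right panels. Cluster 0 was itself built with the members among the variable genes.

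The lipase genes were found together more often inside cluster 0. That cluster was built with the members among the variable genes, which can change how often they are found together. The shares inside it are therefore a description and cannot show whether the genes form separate groups. Pnlip was found in 61.3% (38 of 62) of cells with Pnliprp1 and 33.5% of cells without, and in 52.6% of cells with Pnliprp2 and 31.7% without. Pnliprp2 was found in 46.8% of cells with Pnliprp1 and 26.8% without. The intervals with and without the other gene lay apart for each of these lipase pairs, and overlapped for every pair of a lipase and another member. Of such mixed pairs, Pnlip was found in 36.4% of cells with Klk1 and 38.5% without, in 39.2% with Tgm3 and 36.7% without, and Tgm3 in 59.5% of cells with Pnliprp2 and 48.0% without. Among Tgm3, Sprr2d, Klk1 and Siglecg, Tgm3 with Siglecg was the pair whose intervals lay apart, with Tgm3 in 61.1% of cells with Siglecg and 44.1% without. Tgm3 was found in 63.3% of cells with Sprr2d and 47.8% without, and Sprr2d in 25.3% of cells with Klk1 and 22.6% without. The pattern of cluster 0 was not seen in the whole supporting-lineage-like class, where every pair among these non-lipase genes lay apart. Some mixed pairs lay apart there too, such as Pnliprp2 in cells with Sprr2d (28.2 to 47.8%) and without (16.5 to 22.4%). Others overlapped, such as Pnlip in cells with Klk1 (27.2 to 45.5%) and without (26.7 to 33.7%).

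The co-detection with Cyp11a1 could be followed in 2 other libraries. At E12.5, 84 gonadal-epithelium-like cells had Cyp11a1 and 1683 had none. Tgm3 was found in 22.6% and 6.36% of them, Pnlip in 29.8% and 12.1%, Klk1 in 16.7% and 4.16%, and Pnliprp2 in 8.33% and 7.61%. Inside the supporting-lineage-like class at E12.5, the genes did not split as at E11.5. The intervals with and without Cyp11a1 lay apart for Pnlip (20.5 to 41.2% against 13.1 to 17.6%), Tgm3 and Klk1. They overlapped for Sprr2d (4.25 to 18.1% against 4.12 to 6.98%), Siglecg (7.70 to 23.9% against 7.41 to 11.01%), Pnliprp1 and Pnliprp2. In Induced D6, Tgm3 was found in 14 of 30 cells with Cyp11a1 (46.7%, 28.3 to 65.7) and 2.45% of the other 3517, and Klk1 in 16.7% and 0.739%. Pnlip was found in 6.67% and 6.60% of the induced cells and Pnliprp2 in none of the 30 (0 to 11.6%) and 3.41% of the others. All 30 were supporting-lineage-like. Of the other 1266 induced cells of that class, 6.71% held Tgm3, 2.05% Klk1, 9.64% Pnlip and 3.24% Pnliprp2. Inside the class the intervals lay apart for Tgm3 and Klk1 and overlapped for the other genes. E10.5, E13.5 and E14.5 had 3, 6 and 3 cells with Cyp11a1, too few for the comparison.

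After E11.5 the genes were lower in gonadal-epithelium-like cells by amounts that differed between them. Each later library is set against the same E11.5 cells, so the folds share that library. All 7 genes were at 10 CPM or more at E11.5, and 5 of them (not Pnliprp1 and Klk1) at 50 CPM or more. At E12.5, 1 of the 7, Tgm3, was at least 4-fold lower, as were 0.0504% of the 7933 genes at 10 CPM or more in either library and 0.0347% of those at 50 CPM or more. At E13.5 all 7 were at least 4-fold lower, as were 1.25% and 1.13% of all genes by these minimums, and at E14.5 all 7 again, as were 1.83% and 1.87%. The choice of the genes fixed the direction of these counts. The median gene shifted by -0.14, -0.38 and -0.37 on the log2 scale at the 3 stages.

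Tgm3 went from 108 CPM to 22.6, 2.37 and 0.358 (5 UMIs), which is 4.78-fold lower (4.32 to 5.29) by E12.5 and 302-fold (129 to 930) by E14.5. Pnliprp2, the related lipase, went from 141 CPM to 39.3, 3.45 and 0.430 (6 UMIs), or 3.59-fold by E12.5 and 328-fold (151 to 895) by E14.5. Sprr2d went from 86.7 CPM to 35.1, 1.63 and 0 UMIs, which is at least 404-fold lower against a limit of 3 counts over the class. Sprr2d and Klk1 were 2.47-fold and 2.19-fold below E11.5 at E12.5, and 53.3-fold and 38.3-fold at E13.5. For Sprr2d the fold at E13.5 ranged from 28.8 in cells with a Nr5a1 UMI to 410 in cells with a Foxl2 UMI (7 UMIs). In supporting-lineage-like cells alone 1 UMI of Pnliprp2 was left at E14.5, or 0.127 CPM.

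Pnlip, Pnliprp1 and Siglecg had smaller folds. Pnlip went from 144 CPM to 64.4, 13.9 and 3.94, a fold of 36.7 by E14.5, which was 114 in cells with a Foxl2 UMI. Pnliprp1 went from 48.6 CPM to 26.9, 6.85 and 0.931 (13 UMIs), a fold of 52.2, and Siglecg from 83.3 to 25.4, 5.82 and 2.00, a fold of 41.6. Pnlip and Siglecg were the genes with most UMIs left at E14.5 (55 and 28). Klk1 went from 35.9 CPM to 16.4, 0.937 and 0.430 (6 UMIs), and Cyp11a1 from 48.7 to 13.4, 0.937 and 0.358.

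Between E11.5 and E12.5 both the share of holding cells and the UMIs in each of them were lower for Pnlip, Tgm3, Pnliprp2 and Sprr2d. The latter cannot fall below 1, so the sizes of these 2 differences cannot be compared. In supporting-lineage-like cells the share with Pnlip went from 30.95% to 16.4%, with Tgm3 from 32.8% to 11.1%, with Pnliprp2 from 21.6% to 9.58% and with Sprr2d from 12.45% to 5.73%. The UMIs per holding cell, on the same thinned scale, went from 2.26 to 1.63 for Pnlip, 1.69 to 1.27 for Tgm3, 3.65 to 2.21 for Pnliprp2 and 3.77 to 3.50 for Sprr2d. They went from 1.79 to 1.45 for Siglecg, stood at 1.86 and 1.85 for Pnliprp1, and were higher at E12.5 for Klk1 (1.27 and 1.35). The shares of holding cells were lower for these genes too, at 24.5% and 9.49%, 13.6% and 7.34%, and 14.1% and 7.43%. At E13.5 the shares in the class were 4.23% for Pnlip, 0.846% for Tgm3, 1.11% for Pnliprp2 and 0.195% for Sprr2d.

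The sum of the supporting-lineage markers took the opposite course, though not every marker did. The 13 markers summed stood at 1580 CPM in E11.5 gonadal-epithelium-like cells and at 2015, 2926 and 2975 from E12.5 to E14.5. These markers had also named the clusters. Supporting-lineage-like cells were 818 of the 1403 cells at E11.5 and 1550 of the 2078 at E13.5. The part of this mix in the higher sum was not tested. The marker with most UMIs at the last 2 stages was Gng13 (486 and 560 CPM). Nr0b1, a nuclear receptor gene among the markers, went from 39.8 CPM at E11.5 to 27.0, 7.74 and 9.74, and Runx1 stood at 88.5, 72.9, 67.4 and 80.8. The summed erythroid markers, RNA that these cells should lack, stood at 86.4, 52.1, 305 and 1882 CPM. Their part in the lower counts of the 7 genes was not tested, and at their highest they took 1882 of each 1000000 UMIs.

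Cells chosen by a Foxl2 UMI alone, without any cluster name, gave the same order of stages. There were 147, 375, 1022 and 699 such cells from E11.5 to E14.5. Pnlip was at 249, 64.4, 11.97 and 2.18 CPM in them, Tgm3 at 221, 34.8, 2.09 and 0.546, and Sprr2d at 240, 61.3, 0.586 and 0 UMIs. Siglecg was at 215, 56.5, 7.28 and 3.00 CPM, and Klk1 at 68.8, 26.2, 0.669 and 0.136 (1 UMI). Foxl2-holding cells thus stood at 68.8 CPM or more of these 5 genes at E11.5 and at 11.97 CPM or less at E13.5.

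**Figure D5:**
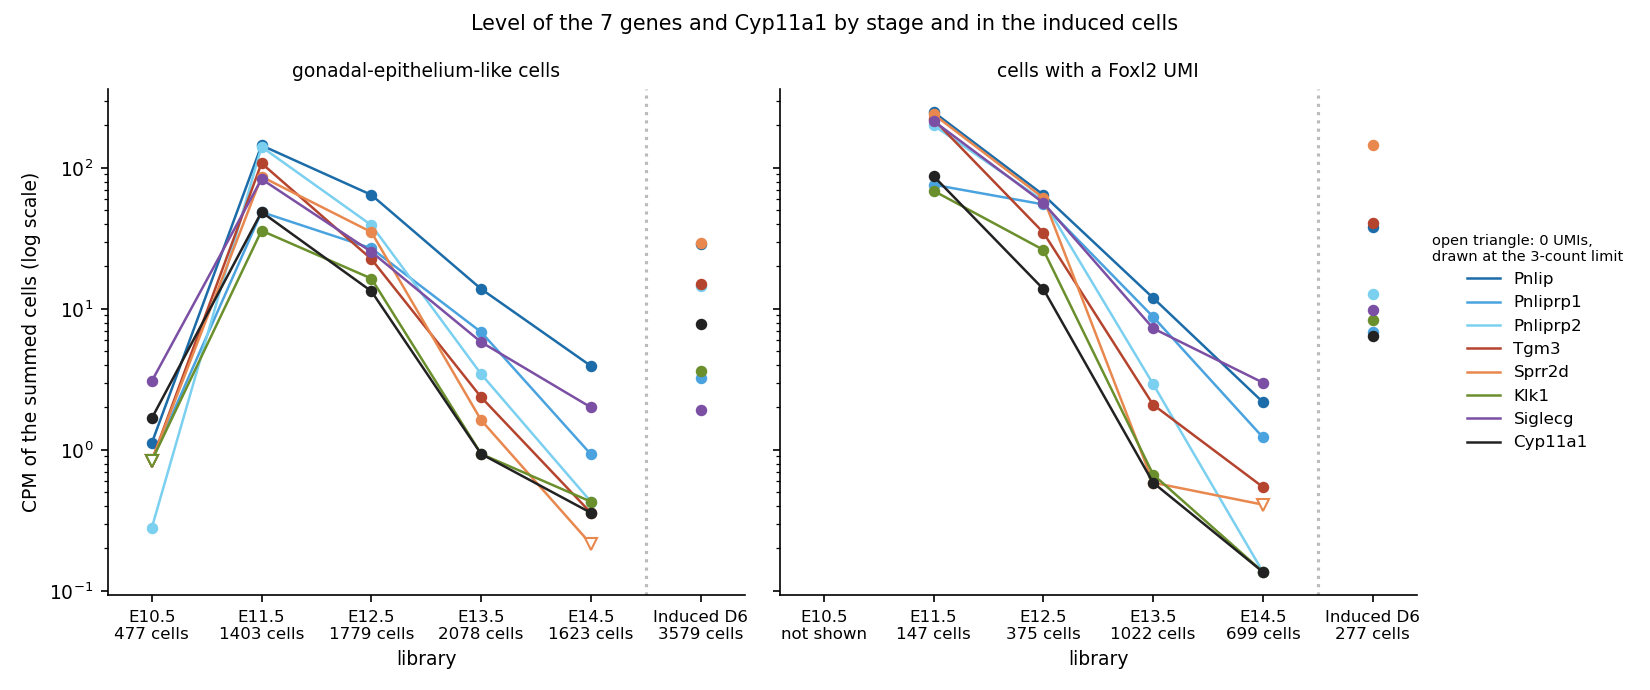
CPM (log axis) of the 7 genes and Cyp11a1 in the summed gonadal-epithelium-like cells (left) and in the summed cells with a Foxl2 UMI (right) of each library; lines join the gonad stages, and open triangles stand for 0 UMIs at the level of 3 counts. In both panels the E11.5 points are the highest and the E14.5 points are below 4 CPM, and in the right panel Sprr2d of the induced cells, at 145 CPM, lies between its E11.5 and E12.5 points.

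Before E11.5 the genes were near or below the limit of counting, in a class of other composition. The E10.5 gonadal-epithelium-like class, 477 cells of 1 coelomic-epithelium-like cluster, held 4 UMIs of Pnlip, 1 of Pnliprp2, 11 of Siglecg, and none of the other 4 genes. Against these, E11.5 was 129-fold higher for Pnlip (50.5 to 475), 27.1-fold for Siglecg and 506-fold for Pnliprp2 (90.7 to 19974, from 1 UMI). It was at least 129-fold higher for Tgm3, at least 104-fold for Sprr2d, at least 58.1-fold for Pnliprp1 and at least 42.9-fold for Klk1. All 7 genes were at least 4-fold lower at E10.5, as were 5.21% of all genes at 10 CPM or more and 4.54% at 50 CPM or more.

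In the induced cells the genes were present but in other proportions. The gonadal-epithelium-like class of Induced D6 held 29.1 CPM of Pnlip, 3.26 of Pnliprp1, 14.6 of Pnliprp2, 15.1 of Tgm3, 29.4 of Sprr2d, 3.61 of Klk1 and 1.92 of Siglecg. Against E11.5 that is 4.97-fold lower for Pnlip, 14.9-fold for Pnliprp1, 9.65-fold for Pnliprp2, 7.16-fold for Tgm3, 9.96-fold for Klk1 and 43.4-fold for Siglecg, so 6 of the 7 were at least 4-fold lower, as were 1.37% of all genes at 10 CPM or more and 1.08% at 50 CPM or more. Sprr2d, the remaining gene, was 2.95-fold lower. The induced class was 1311 supporting-lineage-like and 2268 coelomic-epithelium-like cells, against 818 and 585 at E11.5. In supporting-lineage-like cells alone the folds were 26.8 for Siglecg, 4.21 for Tgm3, 5.82 for Klk1 and 1.72 for Sprr2d, and 13.2 for Pnliprp2. Over all kept cells Pnlip was 3.998-fold lower, which left 5 of the 7 at least 4-fold lower.

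The induced cells with Tgm3, Sprr2d and Klk1 were again supporting-lineage-like: 150 of 163, 117 of 135 and 71 of 80. Cluster 8 of that library (479 cells, Foxl2 at 50.6 CPM) held 178 CPM of Sprr2d, 104 of Tgm3, 24.1 of Klk1 and 57.8 of Cyp11a1, with 30.8 of Pnlip and 12.9 of Siglecg. Another supporting-lineage-like cluster of 832 cells held 58.0 CPM of Pnlip and 26.3 of Sprr2d, but 5.44 of Tgm3 and 0.563 of Cyp11a1. The lipases reached further into the coelomic-epithelium-like cells, which had 44.5% of the 605 cells with Pnlip and 57.3% of the 307 with Pnliprp2. In cells with a Foxl2 UMI (277), Sprr2d was at 145 CPM, Tgm3 at 40.9, Pnlip at 38.4, Pnliprp2 at 12.8, Siglecg at 9.85 and Klk1 at 8.37.

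Most relatives of these genes were below 10 CPM, and the rest mostly took another course. Of 21 other lipase and lipid-handling genes 9 were measured, that is at 10 CPM or more, and none was 4-fold lower than E11.5 at any later stage. Over E11.5 to E14.5 the lipoprotein lipase gene Lpl was at 106, 40.3, 41.7 and 50.1 CPM, and Apoe at 170, 184, 127 and 116. Clps, which encodes the cofactor of pancreatic lipase, had 1 UMI at E11.5. Of 7 other transglutaminase genes only Tgm2 was measured, at 7.92 CPM at E11.5 and 21.8 at E14.5. Tgm6, the neighbour of Tgm3, had 0 UMIs in every library's class.

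Among 21 other cornified-envelope genes found, 3 were measured, and 2 of these were at least 4-fold lower at E13.5 and E14.5. Sprr2a3, another small proline-rich protein gene near Sprr2d, was at 15.9, 4.28, 0.0493 (1 UMI) and 0 CPM over E11.5 to E14.5. Lor, which encodes the envelope protein loricrin, was already at 109 CPM at E10.5, then at 102, 43.1, 8.28 and 4.30, and at 151 in the induced cells. The third, Cstb, stayed between 160.0 and 195 CPM over these stages. Of 25 other kallikrein and kinin genes 1 was measured, Klk8, at 28.2 and 34.3 CPM at E11.5 and E12.5. Of 8 other Siglec genes 1 was measured, Siglecf, which lies near Siglecg and went from 14.6 CPM at E11.5 to 7.73, 3.84 and 1.72.

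Of the steroid pathway, Cyp11a1 was the 1 measured gene with this course. Of 14 steroid synthesis genes, 6 were measured at E13.5 and 7 at E14.5, and 1 was at least 4-fold lower than E11.5 at each, Cyp11a1. Over E11.5 to E14.5 Star, which carries cholesterol to the enzyme, was at 14.995, 10.98, 8.77 and 14.53 CPM. Fdx1 and Fdxr, which pass electrons to the enzyme, were at 70.4 and 46.8 CPM at E11.5 and 70.0 and 52.1 at E14.5. Of the listed genes that act after it, Cyp17a1 and Hsd3b1 were higher at the later stages. Hsd17b3 went the other way, from 8 UMIs at E11.5 to 2, 1 and 0. Cyp21a1, Cyp11b1, Cyp19a1, Hsd17b1 and Hsd3b6 had 3 UMIs or fewer at each of these stages. Cyp17a1 stood at 1.49, 1.56, 2.81 and 4.01 CPM over E11.5 to E14.5, below 10 CPM throughout, and Hsd3b1 at 0.931, 2.14, 6.61 and 10.9. Hsd3b1 was the 1 measured gene of the list at least 4-fold higher at E14.5.

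The tissues in which these genes are best known were checked through their other markers in E11.5 cluster 0. Of 14 pancreatic acinar markers 8 had a UMI, with a sum of 578 CPM, of which the carboxypeptidase gene Cpa1 gave 314, while Prss2, Clps, Cpb1, Ptf1a, Rbpjl and Amy2a5 were at 0. Of 13 epidermal markers 8 had a UMI, with a sum of 235 CPM of which Lor gave 211, while Krt5, Krt17, Ivl, Flg and Dsg3 were at 0. Of 8 B cell markers 4 had a UMI, 3.03 CPM in all, with Ms4a1, Pax5 and Igll1 among those at 0. Over gonadal-epithelium-like cells of the 4 later stages Cpa1 was at 181, 105, 37.8 and 8.38 CPM.

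Markers of steroid-producing cells were low in the same cluster. The 8 adrenal cortex markers summed to 3.19 CPM, with Cyp21a1, Cyp11b1 and Cyp11b2 at 0. The 7 fetal Leydig cell markers summed to 21.3 CPM, of which Star gave 14.2. Over gonadal-epithelium-like cells the acinar sum over the gonad stages was 9.77, 312, 247, 155 and 75.5 CPM, and the epidermal sum was 150, 140, 81.5, 54.2 and 53.0.

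The 356 E11.5 gonadal-epithelium-like cells with at least 2 of the 7 genes were set against the 745 with none, after thinning, to see what else they held. They had been chosen by these genes, so the folds describe them and are no test. At least 4-fold higher were 62 of 3272 genes at 50 CPM or more (1.89%), and at least 4-fold lower were 61 (1.86%). Wfdc13, a protease-inhibitor family gene, was at 53.4 against 2.68 CPM (19.9-fold), and Cyp11a1 at 147 against 11.2 CPM (13.1-fold, 8.58 to 20.9). Also among the 10 highest were Rhox8, Aldh3b1, Vav3, Bhlhe41, Ccdc182, Plac1 and Ttc38, at 7.80-fold to 9.42-fold.

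Upk3b, a uroplakin gene of the surface epithelium, was at 3.75 CPM in the holding cells and 135 in the others, 36.0-fold lower, followed by Tm4sf5 (18.95-fold), the matrix gene Dcn (15.2-fold) and Racgap1 (13.4-fold). Racgap1, Cenpf, Uhrf1, Tpx2 and Pclaf, all among the 10 lowest, belong to dividing cells. Of the G2/M phase genes at 50 CPM or more, 12 of 12 were at least 4-fold lower (median log2 difference -2.88), and of the S phase genes 3 of 14 were (-1.29). Of the supporting-lineage markers 3 of 9 were at least 4-fold higher (1.85), and of the coelomic-epithelium markers 3 of 5 were lower (-2.09). Among gonadal regulators Runx1 was 4.06-fold higher and Tcf21 11.4-fold lower, while Nr5a1 was at 51.5 against 46.1 CPM. The comparison was not made within 1 class. Of the cells with at least 2 genes, 90 of 90 with a Cyp11a1 UMI and 255 of 266 without were supporting-lineage-like. Clusters 8 and 9, with Cenpf and Pclaf among their leading genes, were coelomic-epithelium-like. Whether the low division genes and Upk3b follow the class was not tested.

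Across the 106 clusters of the 6 libraries, the gene most like the mean profile of the 7 was Cyp11a1 (Pearson r = 0.941 on log2(CPM + 10)), among 8486 genes at 50 CPM or more in some cluster. The next were Ttc38 (0.867), Cntnap5a (0.860), Wfdc13 (0.855), Hsbp1l1 (0.793), Cpa1 (0.789), Aldh3b1 (0.786), Trpc7 (0.775), Ccdc30 (0.765), Actr6 (0.762), Inha (0.753) and Pglyrp1 (0.743). Nr5a1 was 127th (0.538) and Foxl2 631st (0.339). Clusters of a library share its depth and its embryos, and most are at 0 for these genes, so the values are a description. Among the 7 and Cyp11a1, the closest pairs were Tgm3 and Cyp11a1 (0.975), Klk1 and Cyp11a1 (0.960), and Tgm3 and Klk1 (0.955). Pnlip was closest to Pnliprp2 (0.922) and least like Sprr2d (0.647).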

How the data were processed

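The authors deposited, per library, a matrix of raw UMI counts by gene and cell barcode, without normalization. Per the submitters' processing notes, reads were processed with Cell Ranger 3.0.2 on mm10; how cells were called is not given in the sources used here. Kept cells had at least 500 genes and no more than 10% mitochondrial UMIs. Doublets were scored by Scrublet (scanpy 1.11.5), and the highest-scored cells were removed at 0.8% per 1000 barcodes, 60 to 455 per library. Each library was clustered alone (10000 counts per cell, log-transformed, 2000 variable genes, 30 principal components, 15 neighbours, Leiden resolution 1, seed 0).

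Clusters were named from 20 marker sets. A marker counted at 1.5 times the mean CPM (plus 10) of the other clusters and in 10% of the cells, and a name needed 3 markers, 33.3% of its set and support among the 10 leading genes. The E11.5 library kept 368 cells unnamed (13.8%). These thresholds, the 7 genes and all lists were chosen with earlier results of these data known.

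Counts were summed over cells of a class. Ratios have exact conditional binomial 95% intervals, and a class at 0 is set at 3 counts. Thinning and ratios were tested on simulated data. Named genes are the 7 and Cyp11a1; up to 4 of each list by E11.5 level and up to 4 by change to E12.5; the 12 genes most like the 7; and the 10 highest and 10 lowest in holding cells, without mitochondrial, ribosomal, haemoglobin and Y-linked genes. Some genes that this rule names are not reported here. A few others are shown beside them as neighbours or background and were chosen after their values were seen. Alternatives changed the filter, doublet removal, clustering resolution, class, scaling, thinning and detection rule. Gene models were from GENCODE vM21, and promoter sequences from RefSeq (GRCm38.p6). Protein sequences were not used here.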

Additional observations from a re-analysis of the deposited data

How the results depend on the processing

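No result changed direction under any alternative that was run, and the direction of the folds by stage was set by how the genes were chosen. The fold of the 7 genes summed, E11.5 over later libraries, moved with the cells chosen, and folds of single genes moved further (Sprr2d at E13.5 from 53.3 to 410 and Pnlip at E14.5 from 36.7 to 114 in cells with a Foxl2 UMI). At E12.5 it was 2.82 and became 2.92 in supporting-lineage-like cells alone, 2.56 counted from the median gene, 2.91 without doublet removal, 3.07 at Leiden resolution 2, and 3.00 and 3.56 in cells with a Nr5a1 or a Foxl2 UMI (both added after seeing the data). In the cells with Nr5a1, 2 genes rather than 1 were at least 4-fold lower at E12.5. At E13.5 it was 18.6 and became 25.8 in the supporting-lineage-like class, 14.3 from the median gene, 20.2 with at least 1000 genes and at most 5% mitochondrial UMIs per cell, 20.1 at resolution 2 and 37.0 with Foxl2. At E14.5 it was 80.1 and became 126, 62.1, 103 and 176 in the supporting-lineage-like class, from the median gene, with Nr5a1 and with Foxl2. Against Induced D6 it was 6.69 and became 4.90 in the supporting-lineage-like class, 5.82 in all cells, 7.15 from the median gene, 8.30 with the stricter filter, 7.33 without doublet removal, 5.27 and 6.995 at resolutions 0.5 and 2, and 4.84 with Foxl2. The stricter filter left 3.71 CPM of the 7 genes at E14.5 and 56.5 CPM in Induced D6.

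The share of E11.5 cells with at least 2 of the genes was 26.1% without thinning and 5.77% at 1000 UMIs. Cells with at least 5 genes were supporting-lineage-like in 84.1% at resolution 2, and gonadal-epithelium-like in 96.7% with the stricter filter, 100% at resolution 0.5 and 84.7% at resolution 2, against 99.5% in the main analysis. With Cyp11a1, 89.1% held at least 2 genes without thinning and 70.8% where 2 Cyp11a1 UMIs were asked for, and 34.8% did so without Cyp11a1 and without thinning. Against cells with no member, 31 genes were at least 4-fold higher in cells with at least 1, and 128 over all E11.5 cells, and 14, 105 and 18 were lower in these 2 settings and without thinning. Of the main values, 71 others moved by less than their counting interval. Depth limits what can be said of E10.5 and E14.5, where most of the 7 genes had 0 to 13 UMIs in the class. No paired analysis was possible because each group has 1 library and no result comes from a test.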
